A study of Homo sapiens with 6 samples.

Results

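Intergenic acetylated regions distant from coding genes were examined in human neurons by taking every narrow H3K27ac peak that lies far from a protein-coding gene. A peak belonged to the set when it was under 2000 bp wide and its summit lay outside all protein-coding gene intervals, more than 10 kb from the nearest one. The summit also had to be more than 1 kb from either end of any long non-coding RNA (lncRNA) gene. Of the 78639 H3K27ac peaks on chromosomes 1 to 22 and X, 17038 met these conditions (21.7%), and they covered 7.33 Mb. They are called distant intergenic peaks here. The set was chosen by position and width as measured in the H3K27ac list, so neither is a finding.

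The starting cells were KOLF2.1J, a widely used line of human induced pluripotent stem cells, from which neural progenitors and then neurons were made. The neurons received no treatment that the labels name. Chromatin immunoprecipitation and sequencing (ChIP-seq) was done on 2 libraries with an antibody against H3K27ac, 2 libraries with an antibody against CTCF and 2 input libraries. The deposited H3K27ac and CTCF lists each pool both replicates, so no spread between replicates could be given, no test over samples was possible, and the depth behind each value is unknown. The wider study looked for regulatory elements of MAPT, the gene of the microtubule-associated protein tau. All cells came from 1 line, so features of that line and of neurons in general cannot be told apart.

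H3K27ac is acetylation of lysine 27 on histone H3, a mark laid down by the acetyltransferases CBP and p300 at active promoters and at active enhancers. Enhancers are short stretches of DNA that bind transcription factors and can act on a promoter over long distances, often across other genes. CTCF is a DNA-binding protein that, with cohesin, holds the anchors of chromatin loops and marks many domain borders. Regulatory DNA of developmental genes is often spread over large gene-poor tracts, and such tracts also hold host transcripts of microRNAs (miRNAs) that act in neurons.

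The label of the cells was checked at coding genes, with H3K27ac peaks outside the set within 1 kb of a gene end. Among all 19974 protein-coding genes, 62.5% had such an end, and these are called genes with acetylated ends below. The share was 14 of 15 neuron genes, 11 of 12 neural progenitor genes and 7 of 8 inhibitory neuron genes, against 3 of 8 excitatory neuron genes. It was 3 of 7 pluripotency genes, 3 of 12 liver and muscle genes and 6 of 392 olfactory receptor genes. Endothelial and mesenchymal genes stood above all genes with 7 of 10, astrocyte genes had 5 of 8, oligodendrocyte genes 3 of 8, and microglia and blood genes 2 of 10. Progenitor genes and neuron genes were thus both acetylated, and the share of each cell type in the culture was not measured here.

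The 3 clusters with most distant intergenic peaks lay at host transcripts of miRNAs, so the mature sequences of these miRNAs are shown first, with those of their relatives on chromosome 11 and of MIR34A and MIR30A, which a peak overlapped. They are 5′ to 3′, from RefSeq (GRCh38.p14), with the seed (bases 2 to 8, which pair with target transcripts) in capitals.
miR-9-5p, from MIR9-1, MIR9-2 and MIR9-3: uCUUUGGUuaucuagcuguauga
miR-9-3p, from the same 3 genes: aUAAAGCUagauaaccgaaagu
miR-125b-5p, from MIR125B2 and MIR125B1: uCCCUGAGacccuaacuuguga
miR-99a-5p, from MIR99A: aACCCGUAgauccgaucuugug
miR-100-5p, from MIR100: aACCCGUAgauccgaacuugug
let-7c-5p, from MIRLET7C: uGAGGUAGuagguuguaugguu
let-7a-5p, from MIRLET7A2: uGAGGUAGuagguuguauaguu
miR-34a-5p, from MIR34A: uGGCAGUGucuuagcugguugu
miR-30a-5p, from MIR30A: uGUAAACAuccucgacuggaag
The 3 MIR9 genes yield 1 product, miR-9, which is known to promote neuronal differentiation. Seeds are shared between miR-99a and miR-100 and between let-7c and let-7a. MIR99A, MIRLET7C and MIR125B2 form 1 group on chromosome 21, and MIR100, MIRLET7A2 and MIR125B1 form a related group on chromosome 11.

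The promoter window of MIR9-1HG, the host transcript of MIR9-1, met a distant intergenic peak whose summit lay inside it. It is shown because the largest cluster of these peaks surrounds it, together with 2 windows of other lncRNA genes that met stronger peaks. Each runs from 250 bases before to 50 after a RefSeq start in GRCh38.p14, 5′ to 3′ on the gene's minus strand. Capitals mark motif letters found when 10 motifs were searched on both strands: GGGCGG in the first, CAGCTG and ACAAAG (or its reverse complement) in the second, and CAGCTG in the last.
MIR9-1HG, chr1:156421720-156422019: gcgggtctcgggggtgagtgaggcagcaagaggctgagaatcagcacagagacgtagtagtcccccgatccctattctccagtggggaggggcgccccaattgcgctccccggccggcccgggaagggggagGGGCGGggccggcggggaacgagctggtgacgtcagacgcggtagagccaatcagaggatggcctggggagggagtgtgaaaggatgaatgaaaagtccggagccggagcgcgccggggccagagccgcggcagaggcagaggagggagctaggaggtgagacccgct
LOC105374016, chr3:102673788-102674087: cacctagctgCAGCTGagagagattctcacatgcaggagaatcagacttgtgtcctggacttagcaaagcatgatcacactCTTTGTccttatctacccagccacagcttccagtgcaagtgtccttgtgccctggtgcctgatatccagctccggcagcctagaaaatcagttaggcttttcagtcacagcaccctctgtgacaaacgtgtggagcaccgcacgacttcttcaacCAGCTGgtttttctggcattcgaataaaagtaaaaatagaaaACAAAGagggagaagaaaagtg
LOC105379083, chr5:93162438-93162737: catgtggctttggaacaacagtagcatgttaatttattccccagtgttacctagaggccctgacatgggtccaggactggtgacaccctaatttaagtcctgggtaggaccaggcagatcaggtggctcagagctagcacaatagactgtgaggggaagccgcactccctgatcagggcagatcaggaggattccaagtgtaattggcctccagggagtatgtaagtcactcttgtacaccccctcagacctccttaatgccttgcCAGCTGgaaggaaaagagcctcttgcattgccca
The peak at the MIR9-1HG window had a fold enrichment of 2.62. A stronger peak outside the set, 2891 bp wide with 9.36, had its summit 1.23 kb from MIR9-1. The peak at LOC105374016 had 13.2 and overlapped a CTCF peak with a signal value of 221, and that at LOC105379083 had 8.88. In all, 32 distant intergenic peaks met start windows of 28 lncRNA genes, in 34 pairs of peak and window, and 12 pairs had the summit inside the window. The rule kept summits over 1 kb from the ends of a lncRNA gene interval, so these are starts within such an interval. The 12 windows had a median GC content of 47.5%, from 39.3% to 67.7%, against 50% over lncRNA windows and 58.7% over all 34961 windows. CAGCTG, an E-box of the kind that basic helix-loop-helix factors bind, was in 5 of the 12 against 17.8% of lncRNA windows and 17.95% of all windows. ACAAAG, the core letters of sites bound by SOX and TCF/LEF factors, was in 5 against 20.3% of lncRNA windows and 16.1% of all. GGGCGG, a GC box, was in 1 against 25.6% and 45.03%. The other 7 motifs were each in 0 to 3 of the 12. These matches describe letters in few windows and do not show a bound site.

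Distant intergenic peaks were weaker than the list as a whole, whose median fold enrichment was 4.74. The authors' signal value for H3K27ac was read from its values as a fold enrichment over background, and its median in these peaks was 4.32 (95% order-statistic interval 4.29 to 4.33), with quartiles of 3.45 and 5.96 and a highest value of 75.9. A fold enrichment over 10 was reached by 1317 of them (7.73%). The authors' q was above 0.05 for 1382 (8.11%, 95% Wilson interval 7.71 to 8.53), in a list where q was under 0.05 for 93.1%. All intervals here cover counting error only. Just inside the distance limit, at 10 to 11 kb from a gene, 254 peaks had a median fold enrichment of 4.33, and 272 peaks at 9 to 10 kb had 4.73. Just inside the width limit the median was 13.0 in 71 peaks, and just outside it was 12.9 in 78 peaks. At 1 to 1.5 kb from a lncRNA gene end it was 4.47 in 411 peaks, and at 0.5 to 1 kb it was 4.60 in 532 peaks.

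Peaks deep inside coding genes, with summits in a gene and over 10 kb from any gene end, shared with the set a low fold enrichment and a low CTCF overlap. There were 25503 of them with a median fold enrichment of 4.19. The distant intergenic median was 1.03 times theirs (1.02 to 1.04), it was higher within all 10 deciles of width, by 1.01 to 1.07 times, and it was higher on 19 of 23 chromosomes. The difference is small beside the quartiles of either class, and with no replicate values its spread between cultures is unknown. Narrow peaks within 1 kb of coding gene ends were stronger, with a median of 8.42 in 16928 peaks, so the distant intergenic median was 0.514 times theirs (0.501 to 0.523). Those peaks were also wider, with a median of 534 bp against 299 bp. At matched width the ratio was below 1 in all 10 deciles, with a median of 0.806. It ran from 0.980 in the narrowest decile to 0.473 in the widest, which held 4332 peaks at gene ends against 731 in the narrowest. The 14139 remaining narrow peaks had a median of 4.32, as in the set, and a CTCF overlap of 16.1%. Peaks at lncRNA gene ends had a median of 4.84, and broad peaks of 2000 bp or more had 20.5.

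**Figure D1:**
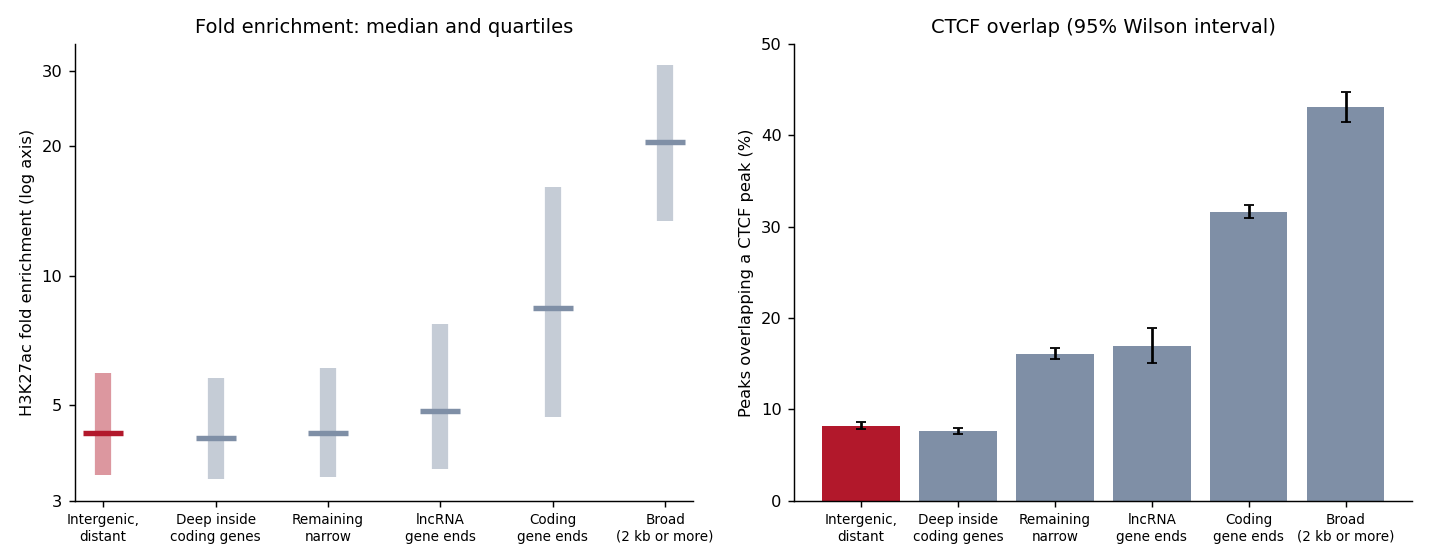
H3K27ac fold enrichment (left, log axis, line at the median and band over the quartiles) and share of peaks overlapping a CTCF peak (right, bars with 95% Wilson intervals) in 6 classes of H3K27ac peak. Distant intergenic peaks (red) lie beside peaks deep inside coding genes in both panels, at 4.32 and 4.19 for fold enrichment, and below peaks at coding gene ends.

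The strongest distant intergenic peak was chrX:52933893-52935735, with a fold enrichment of 75.9. It lay between FAM156B and FAM156A, 12.3 kb from the latter, and overlapped a CTCF peak of signal value 204. The next was chrX:48021018-48022085, with a fold enrichment of 64.3, 11.7 kb from SPACA5. Both lay little beyond the distance limit of the rule. The third, chr3:128680047-128681748, had a fold enrichment of 57.8 and a CTCF peak of signal value 360 beneath it. It stood between RPN1, which encodes an oligosaccharyltransferase subunit, and RAB7A, which encodes a late endosome GTPase, at 30.2 and 45.2 kb. The peak chrX:52261584-52262782 followed with 51.3, in LOC105377209 and 69.5 kb from MAGED4.

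The rest of the 10 strongest lay from 12.2 to 484 kb from a coding gene. The peak chr1:181104109-181105392 had a fold enrichment of 49.1 and lay 12.2 kb from the immediate early gene IER5. The peak chr6:43924875-43926731 had 46.8 and lay in LINC01512, 140 kb from VEGFA, which encodes the vascular endothelial growth factor A. A peak on chromosome 8 with 44.0 lay 26.8 kb from CHD7, a chromatin remodeller needed in neural crest and brain development. The most isolated of the 10 was chr9:90124316-90125913, with 46.6 at 484 kb from DIRAS2 and 519 kb from GADD45G, and no CTCF peak within 16.5 kb. The peak chr2:48111041-48112463 had 44.5, in LOC105374593 and 202 kb from FOXN2. The peak chr17:30599900-30601507 had 44.1 and lay in the transcribed pseudogene SMURF2P1-LRRC37BP1. Among peaks over 500 kb from any coding gene, the 3 strongest were chr7:51949716-51951523 near COBL (fold enrichment 27.6, 633 kb), chr5:125372027-125373847 near ZNF608 (22.02, 624 kb) and chr6:113317365-113319236 near MARCKS (21.7, 539 kb).

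Since the rule kept away from coding and lncRNA genes only, some distant intergenic peaks lay on other annotated genes. Genes of transfer RNAs (tRNAs), transcribed by RNA polymerase III, were met by 15 peaks with a median fold enrichment of 8.31. The highest of these were 36.3 at TRV-CAC1-1, 35.5 at TRN-GTT2-3 and 34.8 at TRQ-TTG1-1. Small nuclear RNA genes of the spliceosome were met by 4 peaks with values from 7.74 to 37.4, the last at RNVU1-30, and 1 peak of 36.8 covered RNU6-7 and RNU6-8. Transcribed pseudogenes were met by 225 peaks with a median of 5.07, of which 53 exceeded a fold enrichment of 10, and other pseudogenes by 123 peaks with a median of 4.62. Overlapped were 15 of 443 tRNA genes, 5 of 154 small nuclear RNA genes, 138 of 1246 transcribed pseudogenes and 90 of 15212 other pseudogenes. These totals count genes at any position, near coding genes or not. Whether the overlapping peaks lie at the starts of these genes was not tested. These gene classes were chosen after values had been seen.

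The density of distant intergenic peaks was measured against eligible sequence, the 1423 Mb in which a summit could have met the rule. It was 11.97 peaks per Mb (exact Poisson interval 11.8 to 12.2). Density was 16.4 per Mb at 10 to 20 kb from the nearest coding gene and 16.5 at 20 to 50 kb. It was 14.8 at 50 to 100 kb, 14.2 at 100 to 200 kb, 10.8 at 200 to 500 kb and 4.75 (4.51 to 4.99) beyond 500 kb. Peaks thus thinned out with distance, while median fold enrichment lay between 4.20 and 4.42 in all 6 distance classes. Eligible sequence was counted whether or not reads can be placed in it, and its part in the low density beyond 500 kb was not tested. The median distance from a coding gene was 89.8 kb, and the longest was 2211 kb. By chromosome, density ran from 7.77 per Mb on chromosome 4 to 24.3 on chromosome 22 among autosomes, and was 6.04 on chromosome X.

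Distant intergenic peaks were denser next to genes with acetylated ends. With each peak and each base assigned to its nearest coding gene, density was 13.99 per Mb (13.7 to 14.2) next to such genes and 8.55 (8.31 to 8.81) next to the others, a ratio of 1.64. The ratio lay between 1.48 and 2.02 in each of the 6 distance classes and was 2.02 beyond 500 kb. Of the distant intergenic peaks, 73.4% had a gene with acetylated ends as their nearest, against 62.5% of coding genes. Fold enrichment differed little between both groups, with medians of 4.32 and 4.29. Eligible sequence includes long stretches without any listed peak. With sequence farther than 500 kb from a listed peak left out, the ratio was 1.45.

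**Figure D2:**
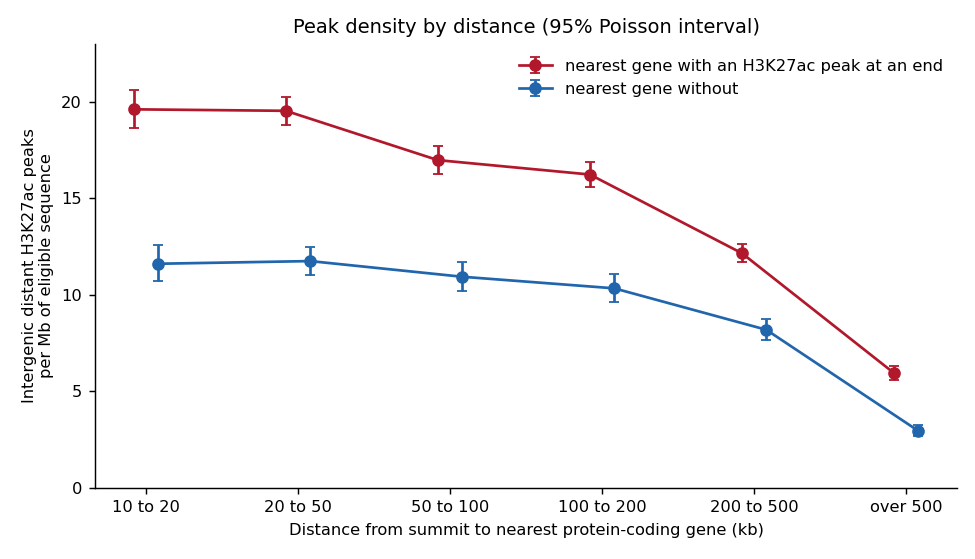
Distant intergenic peaks per Mb of eligible sequence (y axis) by distance to the nearest coding gene (x axis, kb), with 95% Poisson intervals. Red points, next to genes with an H3K27ac peak at an end, fall from 19.6 at 10 to 20 kb to 5.95 beyond 500 kb, and blue points, next to other genes, fall from 11.6 to 2.95.

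Few coding genes held many of these peaks. Of the 11642 coding genes with eligible sequence, 34.4% were the nearest gene of at least 1 distant intergenic peak, and 397 genes with 10 or more held 38.9% of all. Nearness does not show which gene a peak acts on. ZNF608, a zinc finger gene, was nearest to most, with 70 peaks from 22.8 to 802 kb away and a fold enrichment up to 22.02. NEDD1, whose product recruits gamma-tubulin to centrosomes, followed with 62 peaks, all on the side of higher coordinates, where RMST, a lncRNA known from neurogenesis, held 14 of them. LOC124901498 had 58, and MN1, a transcriptional coregulator gene, had 56, of which 55 lay on its lower side and 10 overlapped CTCF. Density at MN1 was 106 per Mb (79.8 to 137).

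The next gene, NOVA1, which encodes a neuronal splicing regulator, was nearest to 53 peaks. SOX2, a transcription factor of the neural progenitor list, was nearest to 52, with 25 on its lower and 27 on its higher side and 29 inside SOX2-OT. The strongest of these, chr3:181417365-181419167, had a fold enrichment of 25.5 at 293 kb from SOX2 and lay in SOX2-OT. SPRY2, an inhibitor of growth factor signalling, had 50. USP25, a deubiquitinase gene, also had 50, but 44 of these lay in MIR99AHG. TBL1XR1, which encodes a corepressor subunit, had 44, of which 25 lay in LINC00578, and the gene had no acetylated end by the measure used.

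Of the 243 genes with over 1 Mb of eligible sequence, 37 were nearest to no distant intergenic peak, and the median density was 4.56 per Mb. Among the densest were ZNF608 (55.8 per Mb), USP25 (45.02), TBL1XR1 (36.0), SOX9 (31.4), CITED2 (31.2), NOVA1 (30.9), MYC (28.2), SOX11 (27.6) and IRX1 (27.2). SOX9, SOX11 and IRX1 are developmental transcription factors, and MYC is a growth regulator with 20 of its 31 peaks in the lncRNA gene PVT1. The 36 peaks nearest to SOX11, a factor of immature neurons, had a median fold enrichment of 5.30, the highest among these listed dense genes. The 35 nearest to CITED2, a transcriptional coregulator gene, had the lowest among them, 3.65. Among genes without a peak, H3-7 had the most eligible sequence, 11.2 Mb. Eligible sequence was counted whether or not reads can be placed in it. How much of it could hold a called peak at these 37 genes was not tested.

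The 13 gene lists differed in density, and the lists were written with earlier results of these data known, so they describe and do not test. Neural progenitor genes led, with 140 peaks at 45.2 per Mb (38.1 to 53.4), which is 3.78 times that of all coding genes. SOX2 with 52, SOX9 with 37 and SOX1 with 14 peaks gave most of them, and HES5, FABP7 and NES had none, in at most 0.002 Mb of eligible sequence each. The peak of highest value near SOX1, chr13:112102516-112103859, had a fold enrichment of 30.5 at 32.0 kb, inside SOX1-OT. Brain development transcription factors had 488 peaks at 18.9 per Mb, or 1.58 times. Of these, 36 were nearest to SOX11 and 33 to NFIA, a factor of gliogenesis, and none to SOX5, MEIS2 or FOXP2, which had acetylated ends.

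Neuron genes had 54 peaks at 15.4 per Mb (11.6 to 20.1), or 1.29 times, with 13 nearest to the growth cone gene GAP43 and 9 and 8 to the neurofilament genes NEFL and NEFM. None was nearest to ELAVL4, DCX or MAPT, which had only 0.0939, 0.0414 and 0.0137 Mb of eligible sequence. So little sequence leaves small room for a peak. With only the stronger 50% of H3K27ac peaks the neuron ratio was 0.769 (0.409 to 1.31), an interval that includes the density of all genes. Neuronal adhesion and guidance genes lay in more gene-poor surroundings, with 56.5 Mb of eligible sequence, and had 353 peaks at 6.24 per Mb, or 0.522 times. At least 1 peak was nearest to 44 of the 47 guidance genes with eligible sequence. CDH8, a cadherin gene, had 35, TENM2, a teneurin gene, had 22 and EFNB2, an ephrin gene, had 20. SLIT3, NTN1 and SLIT1 had none, in 0.159, 0.0087 and 0.0058 Mb of eligible sequence.

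Lists of other cell types were not uniformly low. Endothelial and mesenchymal genes stood at 1.91 times all genes with 43 peaks. Of these, 21 were nearest to CDH5, an endothelial cadherin gene without acetylated ends, and 15 to the collagen gene COL1A2. Astrocyte genes stood at 1.67 times with 17 peaks, of which 8 were nearest to GJA1, and oligodendrocyte genes at 1.86 with 5 peaks. Microglia and blood genes stood at 1.27 with 18 peaks, of which 16 were nearest to PTPRC and 12 of those lay in MIR181A1HG. Inhibitory neuron genes stood at 1.39 with 7 peaks, 5 of them nearest to DLX2, and excitatory neuron genes at 0.482 with 6 peaks, all nearest to SLC17A6, a vesicular glutamate transporter gene. The density of all genes lay inside the Poisson intervals of the neuron, astrocyte, oligodendrocyte, inhibitory neuron and excitatory neuron lists. It also lay inside those of the microglia and blood list and the liver and muscle list. Such intervals count peaks as independent, which neighbouring peaks are not, and leave out the spread between genes. They thus do not separate the remaining lists from all genes. Pluripotency genes stood at 0.329 with 6 peaks, 5 of them nearest to DPPA4 and none to POU5F1, which had 0.033 Mb of eligible sequence. SOX2, with 52 peaks in 0.863 Mb of eligible sequence, was placed in the neural progenitor list and not in the pluripotency list. The contrast between these lists depends on that placement. Liver and muscle genes stood at 0.293 with 1 peak, and olfactory receptor genes at 0.155 with 21 peaks over 250 genes (0.253 when only sequence within 500 kb of a listed peak was counted).

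**Figure D3:**
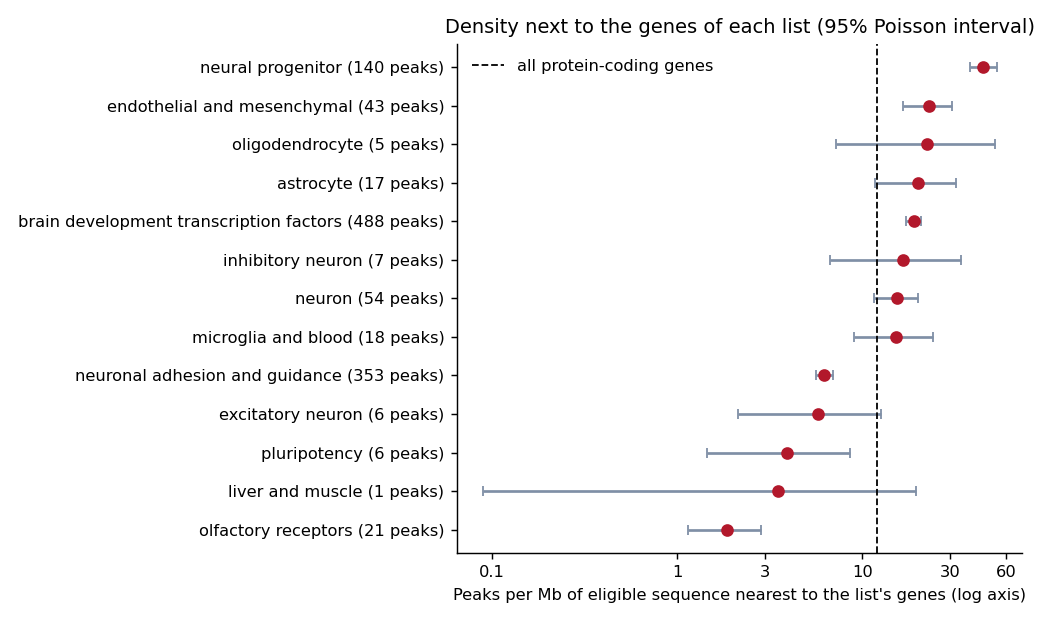
Distant intergenic peaks per Mb of the eligible sequence nearest to the genes of each list (x axis, log scale), with 95% Poisson intervals and the density of all coding genes as a dashed line. Neural progenitor genes lie at 45.2 per Mb and olfactory receptor genes at 1.85, and lists with few peaks have wide intervals.

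Distant intergenic peaks lay near one another. Another one was within 10 kb of 73.4% of them (72.7 to 74.0) and within 50 kb of 86.6%, whereas 63.8% of eligible positions had none within 50 kb. Chaining peaks at 10 kb or less gave 8969 clusters, of which 4537 were single peaks and 19 held 10 or more. The median fold enrichment was 3.99 in single peaks, 4.43 in clusters of 2 to 4, 4.44 in clusters of 5 to 9 and 4.78 in the 19 largest. The 234 peaks of the largest clusters had a gene with acetylated ends as their nearest in 90.2% and lay in a lncRNA gene in 55.1%, against 71.0% and 26.3% of single peaks. Neighbouring peaks share local enrichment and are not independent of one another. Some are calls a short gap apart, so counts of neighbours and cluster sizes need not count separate elements.

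The largest cluster, chr1:156399616-156436776, held 26 peaks around MIR9-1 and its host MIR9-1HG, between RHBG and MEF2D. Its peaks were modest, with a median fold enrichment of 4.87 and a highest value of 12.3, yet they covered 46.5% of the 37.2 kb they spanned. Several were neighbouring calls a short gap apart, such as chr1:156399616-156399757 and chr1:156399841-156401770. The 26 are thus peak calls and need not be separate elements. The next cluster, chr21:16579014-16607124, held 17 peaks in MIR99AHG around MIR125B2, with values from 2.70 to 16.2, and lay 700 kb from its nearest coding gene. The third, chr15:89363337-89397860, held 16 peaks in MIR9-3HG, with a highest fold enrichment of only 5.73. A cluster of 14 peaks, chr6:31052999-31079860, lay between MUC22 and C6orf15, with values from 2.35 to 14.8. The fifth, chr1:181104109-181142565, held 13 peaks beside IER5, had the strong peak of 49.1 named above at its lower end, and 4 of its peaks overlapped CTCF. Host transcripts of miRNAs were thus at each of the 3 largest clusters. Chained at 20 kb, the largest cluster was instead one of 28 peaks in the lncRNA gene LOC105370982 on chromosome 15.

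Counts around miRNA genes were compared after this had been seen. Of 1911 miRNA genes, 431 lay at positions eligible under the rule, and 18.8% of these had a distant intergenic peak within 10 kb. The matching share of eligible positions was not measured. The median count within 50 kb was 0, as it was over eligible positions in general. At least 1 lay within 50 kb of 43.9% of the 431 genes, whereas 63.8% of eligible positions had none. Counts of 10 or more were found at 13 of the 431 genes and at 0.718% of eligible positions. MIR9-1 ranked 1 with 26, MIR125B2 ranked 2 with 22 and MIR9-3 ranked 3 with 18. The clusters at these genes prompted the comparison, so their ranks describe the same peaks again and give no separate support. MIR216B and MIR1302-4 followed with 12 each. MIR99A, MIRLET7C, MIR216A, MIR217, MIR2392 and MIR135A2, which lies in RMST, had 11 each, and MIR9-2 and MIR125B1 had 10 each. Windows of neighbouring miRNA genes overlap, so such counts share peaks. MIR99A, MIRLET7C and MIR125B2 had the same highest peak, at 16.2, and MIR216A, MIR216B and MIR217 had the same nearest peak. MIR100 and MIRLET7A2, the chromosome 11 relatives of MIR99A and MIRLET7C, had 3 each. With windows of 100 kb, MIR99A ranked 1 with 28 and MIR9-1 ranked 3 with 27. At MIR99A that window takes in the whole cluster of 17 peaks around MIR125B2.

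The 3 MIR9 genes differed in the strength of the peaks around them. At MIR9-2, next to MEF2C, 10 distant intergenic peaks reached 21.6, and 3 other H3K27ac peaks reached 37.8. At MIR9-1 the highest values were 12.3 among the 26 and 25.4 among 7 other peaks, and at MIR9-3 they were 5.73 among the 18 and 24.3 among 11 other peaks. The nearest distant intergenic peaks lay 1.62, 2.54 and 1.73 kb from MIR9-1, MIR9-2 and MIR9-3, measured to the summit. At all 3 genes a peak outside the set had its summit closer, at 1.23, 0.675 and 0.134 kb. These peaks were 2891, 6263 and 2552 bp wide, above the width limit of the rule. Counts of distant intergenic peaks here thus leave out the acetylation nearest to each gene. CTCF peaks within 50 kb numbered 10 at MIR9-1, 4 at MIR9-2, 9 at MIR9-3 and 2 at MIR99A.

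**Figure D4:**
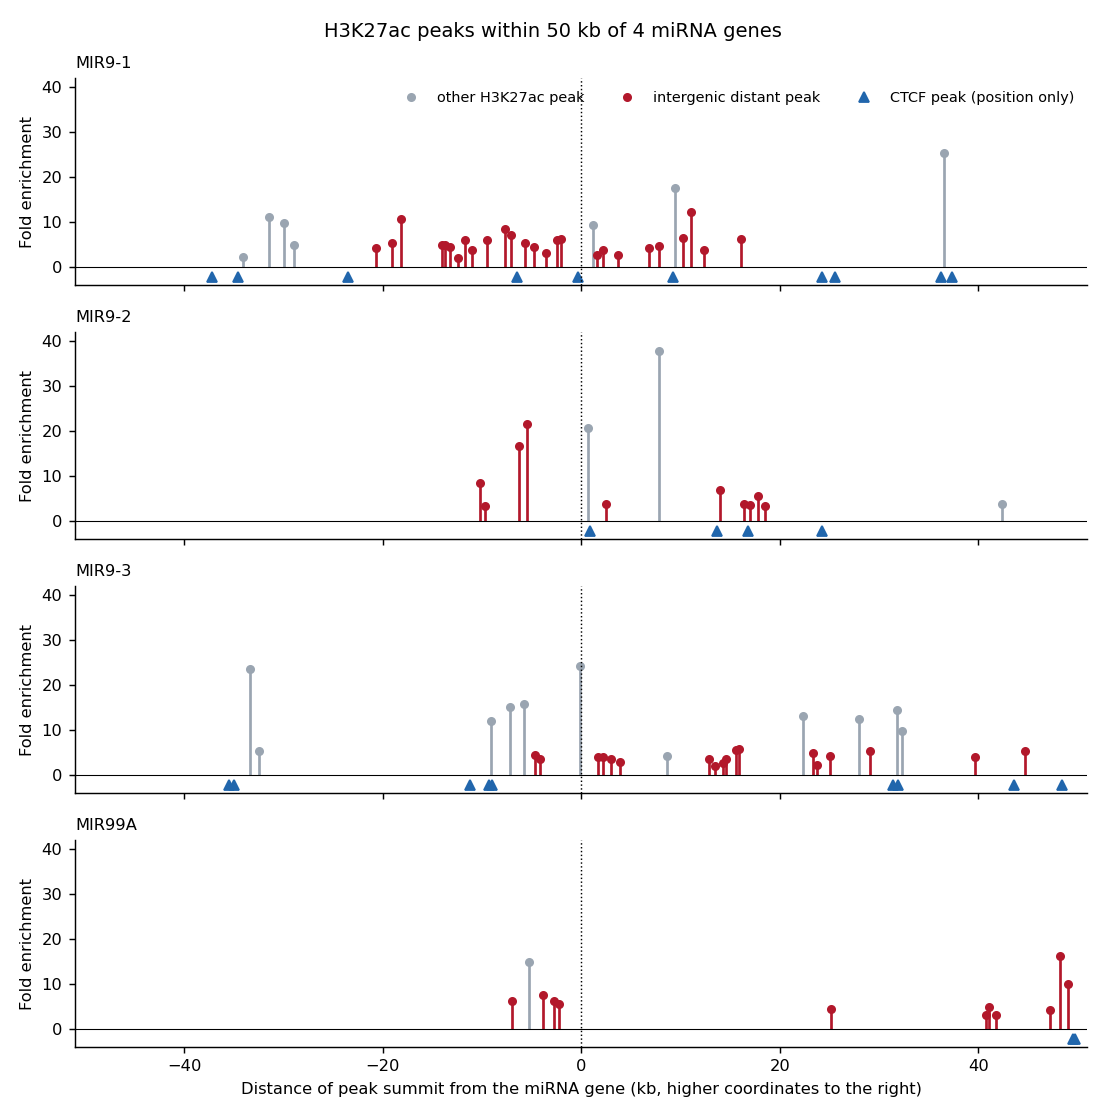
H3K27ac fold enrichment (y axis) of each peak by the distance of its summit from MIR9-1, MIR9-2, MIR9-3 and MIR99A (x axis, kb), with distant intergenic peaks in red, other H3K27ac peaks in grey and CTCF peak positions as triangles. MIR9-1 has 26 red peaks, none above 12.3, and MIR9-2 has 10, with the highest at 21.6.

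Distant intergenic peaks overlapped 6 miRNA genes directly. MIR34A, a target of p53, lay in chr1:9150717-9152115 with a fold enrichment of 17.2. MIR124-3, 1 of the genes of the neuronal miRNA miR-124, lay in chr20:63177669-63178783 with 11.8 and a CTCF peak, and MIR124-2 had a peak 0.409 kb away with 4.46. MIR125B2 lay in chr21:16590198-16590520 with 6.47, and MIR30A met chr6:71403562-71403770 with 3.45. The peaks at MIR548H4 and MIR4634 had 3.85 and 2.70.

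Of the distant intergenic peaks, 4675 (27.4%) lay inside a lncRNA gene. Density was 15.3 per Mb (14.9 to 15.8) inside lncRNA genes and 11.1 (10.9 to 11.3) outside them, and the median fold enrichment was 4.32 in both. The peaks were spread over 1688 lncRNA genes. CASC15 held 59, MIR99AHG 44, MIR100HG 38 and SOX2-OT 35. MIR9-1HG, a much shorter gene, held 19 peaks in 25.3 kb.

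CTCF overlapped few distant intergenic peaks. At least 1 bp was shared with a CTCF peak by 1400 of them, 8.22% (7.81 to 8.64), against 16.2% of all H3K27ac peaks. The share was 31.6% at coding gene ends, which is 23.4 percentage points more (22.6 to 24.2), and 16.9% at lncRNA gene ends. Deep inside coding genes it was 7.67%, a difference of 0.543 points (0.0205 to 1.07) that reversed under 3 of the alternatives, so the order of these classes depends on the definition used. The definition of overlap mattered: 2.86% had a CTCF summit inside the H3K27ac peak, 3.56% met CTCF when both peaks were reduced to 100 bp either side of the summit, 4.47% met one of the stronger 50% of CTCF peaks, and 5.38% met one of a width other than the recurrent 800 bp. The CTCF peaks met had a median signal value of 110, against 91.0 over the CTCF list. The median distance from a distant intergenic summit to the nearest CTCF peak was 24.4 kb.

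Within the set, CTCF overlap went with strength and with closeness to genes. It was between 5.46% and 7.28% in the 7 weakest deciles of fold enrichment, 8.80% in the eighth, 9.86% in the ninth and 17.8% (16.1 to 19.7) in the strongest, whose peaks were also widest, with a median of 966 bp. Peaks with CTCF had a median fold enrichment of 4.97 and those without had 4.27, a ratio of 1.17. Within deciles of width the ratio was above 1 in 9 of 10 and ran from 0.939 to 1.24. Overlap fell from 12.3% at 10 to 20 kb from a coding gene to 5.70% beyond 500 kb.

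**Figure D5:**
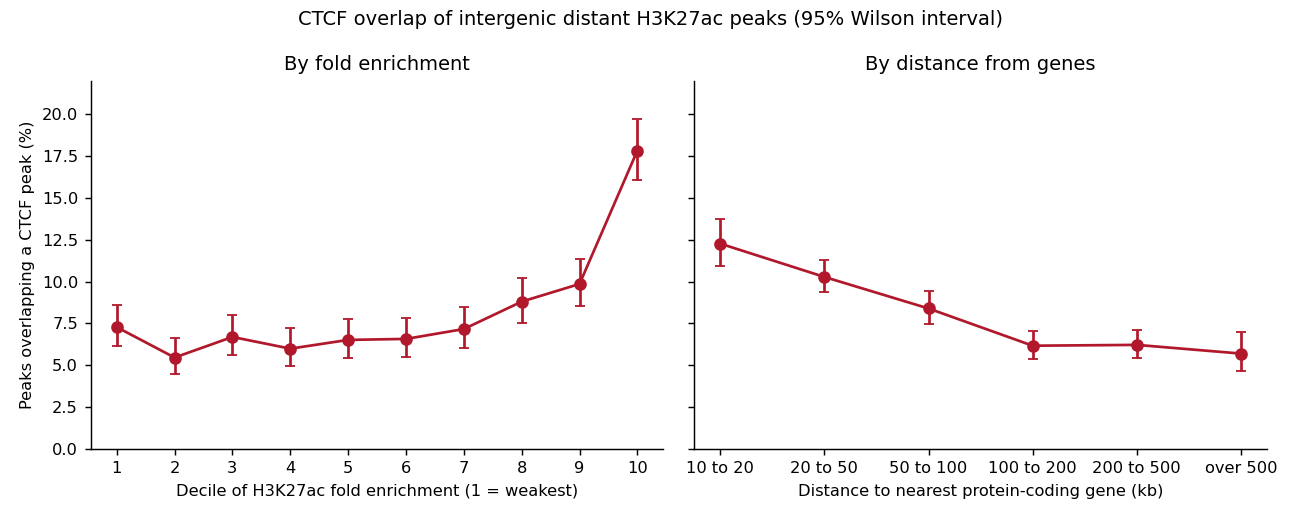
Share of distant intergenic peaks overlapping a CTCF peak (y axis, percent, 95% Wilson intervals) by decile of H3K27ac fold enrichment (left) and by distance to the nearest coding gene in kb (right). The share is 17.8% in the strongest decile, and falls from 12.3% nearest to genes to 5.70% beyond 500 kb.

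The distant intergenic peaks over the strongest CTCF peaks were mostly weak themselves. The CTCF peak of highest signal value, 492, was met by chr1:114346230-114346603, which had a fold enrichment of 5.998 and lay 46.3 kb from TRIM33. The next was met by chr12:13255831-13256638, with a CTCF signal value of 396 and a fold enrichment of 9.10, 36.2 kb from EMP1. Those at chr5:95858661-95858801 near ELL2, chr9:117487496-117487919 near ASTN2 and chr1:5745444-5745885 near NPHP4 had signal values of 377, 375 and 372. Their fold enrichments were 4.34, 3.24 and 4.06.

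No CTCF peak lay between summit and nearest coding gene for 31.1% of distant intergenic peaks (30.4 to 31.8). This share was 57.1% at 10 to 20 kb, against 69.7% of eligible positions at that distance, and 4.27% against 15.0% beyond 500 kb. It was lower than at eligible positions in all 6 distance classes. Those positions include long stretches without any listed peak, and the part of these in the difference was not tested. Only CTCF peaks of the stronger 50% being counted, it was 50.8%.

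Around MAPT, 8 distant intergenic peaks lay within 1 Mb, in 0.253 Mb of eligible sequence, and all were on the lower side of the gene. MAPT was the nearest coding gene of none of them, and only 0.0137 Mb of eligible sequence lay nearest to it. Closest were 4 peaks between PLEKHM1 and LINC02210-CRHR1, 308 to 310 kb from MAPT, that together spanned chr17:45583895-45586629. The first of them had a fold enrichment of 16.2 and overlapped 2 CTCF peaks, and the other 3 had 9.49, 8.84 and 3.79. The peak chr17:45371141-45372856, 523 kb away near ARHGAP27, had 12.5, and chr17:45197610-45197895, 697 kb away near FMNL1, had 5.41 and a CTCF peak of signal value 273. The farthest, at 907 and 914 kb near C1QL1, had 2.56 and 2.83. CTCF overlapped 5 of the 8. Of these, chr17:45586178-45586389 and chr17:45586503-45586629 are neighbouring calls that met a CTCF peak of the same signal value, 96.3. The 5 overlaps thus need not be with separate CTCF peaks.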

How the data were processed

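ChIP-seq for H3K27ac, for CTCF and of input was done on 2 libraries each, 6 samples in all. Reads were trimmed with cutadapt 1.16 and the build was hg38, per the submitters' processing notes; the aligner, peak caller and settings are not given in the sources used here. Each deposited list pools both replicates. The authors' H3K27ac signal column was read as a ratio (fold enrichment) from its values, the deposited CTCF column holds a signal of unstated scale, and both deposited lists hold −log10 q values and a score, which was not used. No column of sample values remained unassigned. Input, single replicates and signal tracks were not analysed here.

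Gene intervals came from RefSeq GRCh38.p14, which shares hg38's primary assembly. Each summit was assigned to its nearest protein-coding gene. Eligible sequence was counted in steps of 100 bp within the span of listed peaks on each chromosome. Peaks are not replicates, so no p was computed; shares have 95% Wilson or Newcombe intervals, densities exact Poisson intervals and medians order-statistic intervals. The code was tested on simulated data. Tools were python 3.11.15, numpy 2.4.6, pandas 2.3.3 and scipy 1.17.1.

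The rule for named regions took the 10 strongest members, the 3 strongest beyond 500 kb, the 5 at the strongest CTCF peaks, the 5 largest clusters and all within 1 Mb of MAPT. Genes named were the 10 nearest to most members, the 10 densest with at least 1 Mb of eligible sequence, and up to 3 with most and 3 with none from each list; 1 gene that the rule names is not reported here. Members and the 13 lists were chosen with earlier results of these data known, and miRNA genes, other gene classes, start windows, and motif letters in them, after values were seen. A symbol of the pluripotency list was not found in the table. Of 431 eligible miRNA genes, 391 were in the sequence table. Motifs searched were CAGATG and CAGCTG (E-boxes), TAATTA (homeodomain), TGANTCA (AP-1), ACAAAG (SOX and TCF/LEF), ATGCAAAT (octamer), GGGCGG (GC box), AGGTCA (nuclear receptors), the palindromic NFI site and the CTCF core, on both strands. Sequences of the peaks themselves were not analysed here. Alternatives were stricter peak lists, other distance and overlap definitions, and other eligible sequence.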

Additional observations from a re-analysis of the deposited data

How the results depend on the processing

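No paired analysis was possible because each list pools both replicates; for the same reason no replicate could be left out. Alternatives on peak sequences were not run. Depth is unknown, so weak regions cannot be told apart from shallow ones. Of 127 alternatives, 88 stayed within the reported value's 95% counting interval (for the number of peaks, within 1.5 times it), 36 moved and 3 reversed; the cause was not tested unless the setting's own construction gives it. Alternatives of eligible sequence, cluster chaining and miRNA windows were chosen after seeing the data.

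With the stronger 50% of H3K27ac peaks only, 6873 peaks met the rule, with a median fold enrichment of 6.59, 1.01 times that deep inside genes and 0.569 times that at gene ends. CTCF overlapped 10.9%, the difference from peaks deep inside genes was -0.351 points, 0% had q above 0.05, 54.0% had a neighbour within 10 kb and density was 4.83 per Mb. List ratios were 0.769 for neuron, 4.55 for neural progenitor and 0 for liver and muscle genes, and the largest cluster held 11 peaks.

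With q under 0.05 only, the median fold enrichment was 4.46, 71.8% had a neighbour and density was 10.999 per Mb. With summits over 20 kb from genes, CTCF overlap was 7.64%, its difference -0.0376 points, density 11.5 and the share with no CTCF peak between 27.4%. Outside every lncRNA gene, 72.5% had a neighbour, density was 11.1 and 32.4% had no CTCF peak between. Autosomes alone had 12.4 per Mb.

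At matched width, the median ratio to gene ends over 10 deciles was 0.806 (0.473 to 0.980). CTCF overlap was 2.86% (difference -0.353 points) with the CTCF summit inside the peak, 3.56% with 100 bp around both summits, 5.38% without the 800 bp width and 4.47% with the stronger 50% of CTCF peaks. No CTCF peak lay between for 42.4% and 50.8% under these last 2. A neighbour within 50 kb was had by 86.6%, and any H3K27ac peak within 10 kb by 76.1%. Within 500 kb of a listed peak, density was 12.9, the ratio for acetylated ends 1.45 and that for olfactory receptors 0.253. With H3K27ac peaks sought within 5 kb of gene ends, the ratio for acetylated ends was 1.85. Within 100 kb of genes, neural progenitor genes stood at 4.82 and brain development factors at 1.30. MIR9-1 ranked 3, MIR9-2 31, MIR9-3 7 and MIR125B2 4 with windows of 100 kb, MIR9-2 5 with 25 kb, and MIR9-2 and MIR9-3 both 6 in the stronger 50%.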
